A study of Mus musculus with 10 samples.

Results

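Fibroblast growth factors (Fgfs) are secreted proteins through which the epithelium and the mesenchyme of a tooth germ signal to each other, and 10 gene rows chosen for Fgf ligands of the enamel knot and of the dental mesenchyme were compared between mouse molars at the bud stage (E13.5, named for the embryonic day) and the cap stage (E14.5). The 10 rows, of 27528 in the table, were taken by Ensembl ID from a list of *Fgf1*, *Fgf3*, *Fgf4*, *Fgf7*, *Fgf8*, *Fgf9*, *Fgf10*, *Fgf15*, *Fgf18* and *Fgf20*. The gene tables of the study pair 7 of these IDs with their symbols. Those of *Fgf15* (ENSMUSG00000031073) and *Fgf18* (ENSMUSG00000057967) are paired by that list alone. The row listed for *Fgf8*, ENSMUSG00000025221, could not be tied to that gene, so it is described by its ID, and *Fgf8* itself was not analysed here.

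Both groups were untreated first molar tooth germs of NMRI mice, an outbred stock. No allele or agent is named in the labels, and embryonic day is the only difference between the stages that they name. Each of the 5 arrays per stage (replicates 1, 2, 4, 5 and 6) held labelled RNA of 12 to 18 pooled germs with a little surrounding tissue, so an array is a pool of embryos and of tissues and not a single animal. Values are deposited log2 signals of exon arrays, on which probes along the exons of a gene give 1 value. How well the probes of a gene bind sets part of its signal, so a gene was compared between stages and between genes only changes were compared, not levels.

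In the bud the dental epithelium grows into condensing mesenchyme. At the cap stage a cluster of non-dividing epithelial cells, the primary enamel knot, secretes Fgf, Wnt, Bmp and Shh ligands that drive the growth of the surrounding epithelium and mesenchyme. Ligands known from the epithelium and its knot include *Fgf4*, *Fgf9*, *Fgf15* and *Fgf20*, whereas *Fgf7* and *Fgf10* are known from mesenchyme, and *Fgf3* from both the knot and the dental papilla. Epithelial Fgfs signal mainly to receptor isoforms in mesenchyme, and *Fgf7* and *Fgf10* to an epithelial isoform of *Fgfr2*.

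The cap stage arrays had higher signals of *Fgf4*, *Fgf15*, *Fgf3* and *Fgf1*, and lower signals of *Fgf10* and *Fgf18*, than the bud stage arrays. These 6 of the 10 rows passed an adjusted p of 0.05 (limma, Benjamini-Hochberg over all 27528 genes), 4 of them higher and 2 lower at E14.5, where 7.85% of all genes passed, 4.36% higher and 3.49% lower. *Fgf20*, *Fgf9*, *Fgf7* and ENSMUSG00000025221 did not pass. In the same 6 rows every array of one stage lay above every array of the other, 4 higher and 2 lower at E14.5, against 8.84% of all genes, 4.82% higher and 4.01% lower. The median change (E14.5 minus E13.5) was 0.26 log2 units over the 10 rows, 0.42 over the 9 without ENSMUSG00000025221 and -0.015 over all genes, and the median size of the change was 0.63 over the 10 rows and 0.095 over all genes. In pooled germs, fewer cells of a type and less RNA per cell cannot be told apart.

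**Figure D1:**
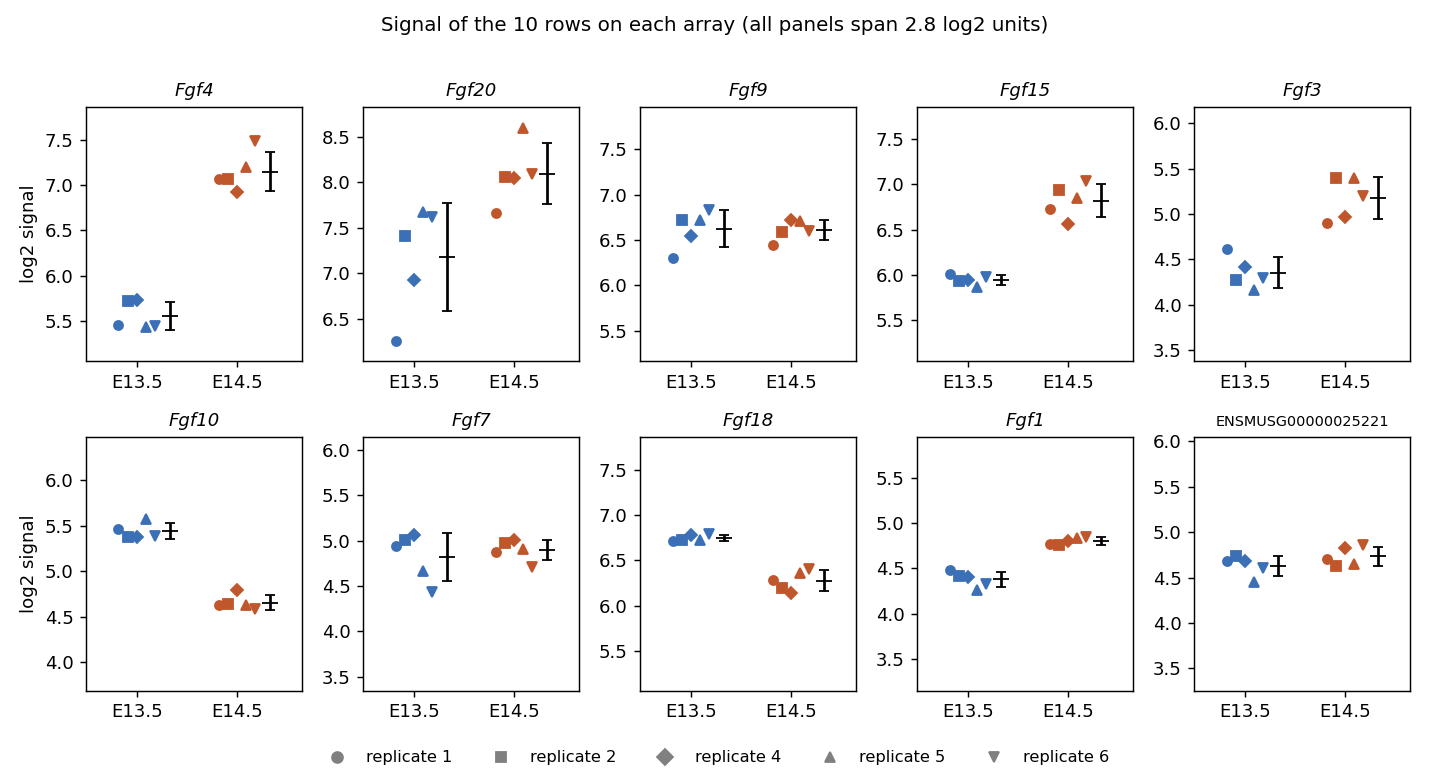
The log2 signal of each row on each array, E13.5 in blue and E14.5 in orange, with marker shapes for replicate numbers and the mean ± SD (n = 5 arrays) beside them. The stages are apart in *Fgf4*, *Fgf15*, *Fgf3*, *Fgf10*, *Fgf18* and *Fgf1*, and the lowest E13.5 array of *Fgf20*, replicate 1, reads 6.26.

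*Fgf3*, *Fgf4* and *Fgf15*, which were all higher at E14.5, are consecutive protein-coding genes on mouse chromosome 7 in RefSeq, between *Ano1* and *LTO1*. The 250 bases before the annotated start of *Fgf3* and *Fgf4* are shown, beside those of *Fgf10*, which was lower at E14.5, and *Fgf9*, which did not pass. All are from RefSeq on build GRCm38.p6 and the forward strand, at chr7:144838362-144838611, chr7:144861136-144861385, chr13:118714449-118714698 and chr14:58072436-58072685. Capitals mark a match to a searched motif.
Fgf3: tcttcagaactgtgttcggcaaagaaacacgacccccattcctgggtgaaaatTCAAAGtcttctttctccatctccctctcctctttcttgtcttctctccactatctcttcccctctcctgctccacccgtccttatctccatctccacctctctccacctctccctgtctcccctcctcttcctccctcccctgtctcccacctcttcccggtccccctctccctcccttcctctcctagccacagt
Fgf4: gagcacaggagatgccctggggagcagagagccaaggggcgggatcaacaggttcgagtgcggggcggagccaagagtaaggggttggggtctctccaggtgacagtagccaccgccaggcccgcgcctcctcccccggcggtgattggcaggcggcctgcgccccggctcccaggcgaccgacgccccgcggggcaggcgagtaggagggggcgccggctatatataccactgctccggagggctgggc
Fgf10: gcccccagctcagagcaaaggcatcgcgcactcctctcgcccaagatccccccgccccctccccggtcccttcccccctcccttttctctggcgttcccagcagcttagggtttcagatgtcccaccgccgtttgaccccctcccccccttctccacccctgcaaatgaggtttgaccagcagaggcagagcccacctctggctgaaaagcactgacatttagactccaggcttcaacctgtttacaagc
Fgf9: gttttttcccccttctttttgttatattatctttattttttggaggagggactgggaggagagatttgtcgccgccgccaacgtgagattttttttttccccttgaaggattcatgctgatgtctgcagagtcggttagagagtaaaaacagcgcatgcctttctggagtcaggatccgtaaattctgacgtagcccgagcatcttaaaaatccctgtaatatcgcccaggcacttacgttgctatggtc

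Of the 10 symbols, 6 (*Fgf3*, *Fgf4*, *Fgf7*, *Fgf9*, *Fgf10* and *Fgf18*) had such a sequence. The motifs searched on both strands were CTTTGA and CTTTGT, core letters bound by Lef1 and Tcf proteins, a form of the NF-kB site, and TAATTG, a core of many homeodomain factors. The *Fgf3* sequence held CTTTGA on the reverse strand, read as TCAAAG, 197 bases before the start. In *Fgf7*, CTTTGT lay 226 and TAATTG 62 bases before it. None of the motifs was in the windows of *Fgf4*, *Fgf9*, *Fgf10* or *Fgf18*, which says only that these letters are not there. Of 32851 promoter windows of the same length, 13.8% held CTTTGA, 16.5% CTTTGT, 7.17% TAATTG and 0.356% the NF-kB form. Bases G and C made up 43.6% of the window of *Fgf7*, 44.8% of *Fgf9*, 55.2% of *Fgf3*, 61.2% of *Fgf10*, 71.2% of *Fgf4* and 77.2% of *Fgf18*, with a median of 52.4% over all windows, so neighbouring genes that were both higher at E14.5 differed in it.

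*Fgf4* (ENSMUSG00000050917) encodes a ligand whose known site in the tooth is the enamel knot. Its log2 signals at E13.5 were 5.46, 5.72, 5.73, 5.43 and 5.45 on replicates 1, 2, 4, 5 and 6, and at E14.5 they were 7.07, 7.07, 6.92, 7.20 and 7.49. Every cap stage array lay at least 1.19 above every bud stage array. Mean signals were 5.56 ± 0.15 and 7.15 ± 0.21 (SD over 5 arrays at each stage), a rise of 1.59 ± 0.11 (SE) log2 units or 3.01-fold in signal (95% interval 2.55 to 3.56, limma adjusted p = 8.17e-06). Of all genes, 0.0581% had a larger rise.

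*Fgf20* (ENSMUSG00000031603) encodes an epithelial ligand known to act downstream of ectodysplasin, and the study places it among shape genes, whose loss alters the form of the tooth without stopping its development. Signals were 6.26, 7.41, 6.92, 7.68 and 7.62 at E13.5 and 7.66, 8.06, 8.05, 8.60 and 8.10 at E14.5. The stages overlapped at 1 pair of arrays, bud replicate 5 (7.68) and cap replicate 1 (7.66). The means were 7.18 ± 0.59 and 8.10 ± 0.34 (SD, n = 5), and the difference of 0.92 ± 0.26 (SE) log2 units had a 95% interval of 0.35 to 1.49 but missed the threshold (limma adjusted p = 0.0549). Its SE exceeded that of the other 9 rows. The difference was 0.69 without E13.5 replicate 1, and over 17 alternative settings the adjusted p ran from 0.00593 to 0.134, under 0.05 in 8 of them.

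*Fgf9* (ENSMUSG00000021974), a ligand of the same subfamily as *Fgf20*, is known from dental epithelium from initiation onwards. It read 6.30, 6.72, 6.54, 6.72 and 6.83 at E13.5 and 6.44, 6.58, 6.72, 6.70 and 6.60 at E14.5, and the E14.5 range lay within the E13.5 range. Means were 6.62 ± 0.21 and 6.61 ± 0.11 (SD, n = 5). The difference of -0.012 ± 0.10 (SE, limma adjusted p = 0.978) had a 95% interval of -0.23 to 0.21 log2 units, and its sign depended on the setting. On E13.5 replicate 1 both *Fgf9* and *Fgf20* were at their lowest.

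*Fgf15*, known in the adult as a gut hormone and in the embryo as a local ligand, read 6.01, 5.93, 5.94, 5.87 and 5.98 at E13.5 and 6.73, 6.93, 6.56, 6.85 and 7.03 at E14.5. The bud arrays were within a narrow band, and the cap arrays lay at least 0.55 above it. The mean went from 5.95 ± 0.053 to 6.82 ± 0.19 (SD, n = 5), a rise of 0.88 ± 0.087 (SE) log2 units or 1.83-fold (95% interval 1.61 to 2.10, limma adjusted p = 8.35e-05). In the reference the gene overlaps *Gm26793*, a long non-coding RNA gene, and whether probes are shared was not tested.

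*Fgf3* (ENSMUSG00000031074), another shape gene, encodes a ligand of both tissues. Its signals were 4.62, 4.27, 4.41, 4.16 and 4.30 at E13.5 and 4.90, 5.40, 4.97, 5.39 and 5.20 at E14.5. All cap stage arrays were above all bud stage arrays, by at least 0.28. The mean went from 4.35 ± 0.17 to 5.17 ± 0.23 (SD, n = 5), a rise of 0.82 ± 0.12 (SE) log2 units or 1.76-fold (95% interval 1.47 to 2.11, limma adjusted p = 0.0011). Larger rises were seen in 0.53% of all genes for *Fgf15* and 0.614% for *Fgf3*. The mean signal of *Fgf3* lay at percentile 32.5 of all genes at E13.5 and 51.0 at E14.5.

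*Fgf10* (ENSMUSG00000021732), a mesenchymal ligand needed for the upkeep of epithelial progenitors and also a shape gene, went the opposite way. It read 5.47, 5.38, 5.38, 5.58 and 5.39 at E13.5 and 4.63, 4.63, 4.79, 4.63 and 4.59 at E14.5. The stages were 0.58 apart at their nearest arrays. The mean went from 5.44 ± 0.087 to 4.65 ± 0.079 (SD, n = 5), so that the signal fell by 0.78 ± 0.066 (SE) log2 units and was 1.72-fold higher in the bud (95% interval 1.56 to 1.91, limma adjusted p = 2.73e-05). A larger fall was seen in 0.538% of all genes.

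*Fgf7* (ENSMUSG00000027208), the keratinocyte growth factor, shares its receptor isoform with *Fgf10* and is listed by the study as dispensable, that is, expressed but without a known tooth phenotype when lost. Signals were 4.94, 5.00, 5.06, 4.66 and 4.44 at E13.5 and 4.88, 4.98, 5.00, 4.91 and 4.71 at E14.5. The stages overlapped, with the cap arrays inside the range of the bud arrays. Mean signals lay at percentile 43.4 of all genes at E13.5 and 45.1 at E14.5, and detection over background was not examined. The means of 4.82 ± 0.26 and 4.90 ± 0.11 (SD, n = 5) differed by 0.075 ± 0.12 (SE, limma adjusted p = 0.850), with a 95% interval of -0.18 to 0.33 log2 units. The gene overlaps *Fam227b* in the reference, and whether probes are shared was not tested.

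*Fgf18*, a ligand best known from bone and cartilage, read 6.72, 6.73, 6.78, 6.72 and 6.79 at E13.5 and 6.29, 6.19, 6.14, 6.36 and 6.40 at E14.5. Every cap array was below every bud array. From 6.75 ± 0.036 to 6.28 ± 0.11 (SD, n = 5) it fell by 0.47 ± 0.067 (SE) log2 units, and was 1.39-fold higher in the bud (95% interval 1.25 to 1.53, limma adjusted p = 0.000906).

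*Fgf1* (ENSMUSG00000036585), a ligand that binds all the Fgf receptors and another dispensable gene, showed the smallest change of the 6 rows that passed. It read 4.48, 4.42, 4.40, 4.26 and 4.33 at E13.5 and 4.77, 4.76, 4.80, 4.84 and 4.85 at E14.5. Stages were separate, 0.27 apart. The mean went from 4.38 ± 0.086 to 4.80 ± 0.040 (SD, n = 5), a rise of 0.42 ± 0.061 (SE) log2 units or 1.34-fold (95% interval 1.22 to 1.47, limma adjusted p = 0.00105). Its mean signal lay at percentile 33.2 of all genes at E13.5 and 43.1 at E14.5. The gene overlaps *Arhgap26* and *Gm5820* in the reference, and whether probes are shared was not tested.

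The row ENSMUSG00000025221 read 4.68, 4.73, 4.68, 4.45 and 4.60 at E13.5 and 4.70, 4.63, 4.83, 4.65 and 4.85 at E14.5. These stages overlapped, and the means of 4.63 ± 0.11 and 4.73 ± 0.10 (SD, n = 5) differed by 0.10 ± 0.075 (SE, limma adjusted p = 0.547).

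The next comparison was whether the ligands differed from each other in their change. A constant probe effect on the log2 signal of a gene cancels in its change. The gap between both genes of a pair was therefore taken on each array and compared between stages for 6 pairs. An effect that varies with signal level, as near background, would not cancel and was not tested. Mean signals lay at percentiles 32.5 and 51.0 (E13.5 and E14.5) for *Fgf3*, 43.4 and 45.1 for *Fgf7*, 55.8 and 39.6 for *Fgf10*, and 57.9 and 85.6 for *Fgf4*. Every split of the 10 arrays into groups of 5 was enumerated for an exact, two-sided permutation p. *Fgf4* gained 1.60 ± 0.16 (SE) log2 units on *Fgf9*, and *Fgf20* gained on it too, as the gap of *Fgf9* minus *Fgf20* changed by -0.93 ± 0.21 (SE). *Fgf3*, known from knot and mesenchyme, gained 1.60 ± 0.16 (SE) on the mesenchymal *Fgf10*, and *Fgf7*, also mesenchymal, gained 0.86 ± 0.14 (SE) on it. Of the neighbours on chromosome 7, *Fgf3* rose less than *Fgf4*, by a difference of -0.77 ± 0.15 (SE). In these 5 pairs the stages did not overlap, and each had exact p = 0.00794, the smallest the design allows (adjusted over 6 pairs 0.00952). The gain of *Fgf4* on *Fgf20*, 0.67 ± 0.32 (SE), did not pass (exact permutation p = 0.0873, adjusted 0.0873). Without E13.5 replicate 1, whose *Fgf20* signal was the lowest, that gain was 0.88 and passed (exact permutation, adjusted p = 0.0318). This was the 1 of 13 alternative settings in which it passed, and the adjusted p ran up to 0.159. With medians in place of means, the 5 pairs each had an adjusted p of 0.0571 (exact permutation), and *Fgf4* and *Fgf20* had 0.119. Several splits tie on the median, and 0.0571 is the lowest value the 5 could reach beside that higher one. The median setting thus could not decide whether they pass.

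Markers of the tissues moved between the stages along with the ligands. Of 10 mesenchyme markers, including the transcription factors *Msx1*, *Pax9*, *Barx1*, *Lhx6* and *Lhx8*, 8 were lower at E14.5 (limma, same threshold), and *Dlx2* (0.081) and *Runx2* (-0.086) did not pass. The median of the list was 8.26 to 8.51 on the E13.5 arrays and 7.40 to 7.50 on the E14.5 arrays, and its summed log2 signal 82.0 to 83.8 and 74.4 to 75.6. The change of the list median, -0.96 log2 units, was larger in size than the fall of *Fgf10* (-0.78) or *Fgf18* (-0.47), and the part of tissue proportions in those falls was not tested.

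Of 9 epithelial markers 6 could be matched, and 4 of them rose (*Trp63*, *Perp*, *Cdh3* and *Lama3*), while *Jag2* (0.37) and *Dst* (0.13) did not pass. The list median was 7.24 to 7.69 at E13.5 and 7.90 to 8.06 at E14.5, a change of 0.51. The summed log2 signal was 43.9 to 45.6 and 47.3 to 48.5. The keratin and adhesion genes *Krt14*, *Cdh1* and *Epcam* were not matched to an ID. Of 11 enamel knot genes besides Fgfs, 8 rose, including *Shh* (2.02) and *Cdkn1a* (0.95), an inhibitor of cell division, *Bmp4* (-0.56) fell, and *Bmp7* and *Lef1* did not pass. Their median was 5.98 to 6.20 at E13.5 and 6.91 to 7.36 at E14.5, a change of 1.08. Their summed log2 signal was 68.2 to 71.0 and 77.5 to 81.4. The rise of *Fgf4* (1.59) was larger than the change of either list median and those of *Fgf15* (0.88) and *Fgf3* (0.82) lay between them. How far proportions of epithelium or knot cells enter these rises was not tested.

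Of 6 bone markers 3 rose, *Spp1* by 1.89, *Alpl* by 0.74 and *Col1a1* by 0.32, and *Postn* fell by 0.60. The list median was 5.54 to 6.33 at E13.5 and 6.43 to 6.74 at E14.5, with summed log2 signals of 37.8 to 39.7 and 40.6 to 42.6. No marker of these lists was listed at 0. E13.5 replicate 1 had the lowest epithelial median (7.24) and the lowest enamel knot median (5.98) of its stage and the highest bone median (6.33). Of the bud arrays it also had the lowest *Fgf20*, *Fgf9* and *Fgf18*, and the highest *Fgf15* (6.01), *Fgf3* (4.62) and *Fgf1* (4.48).

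**Figure D2:**
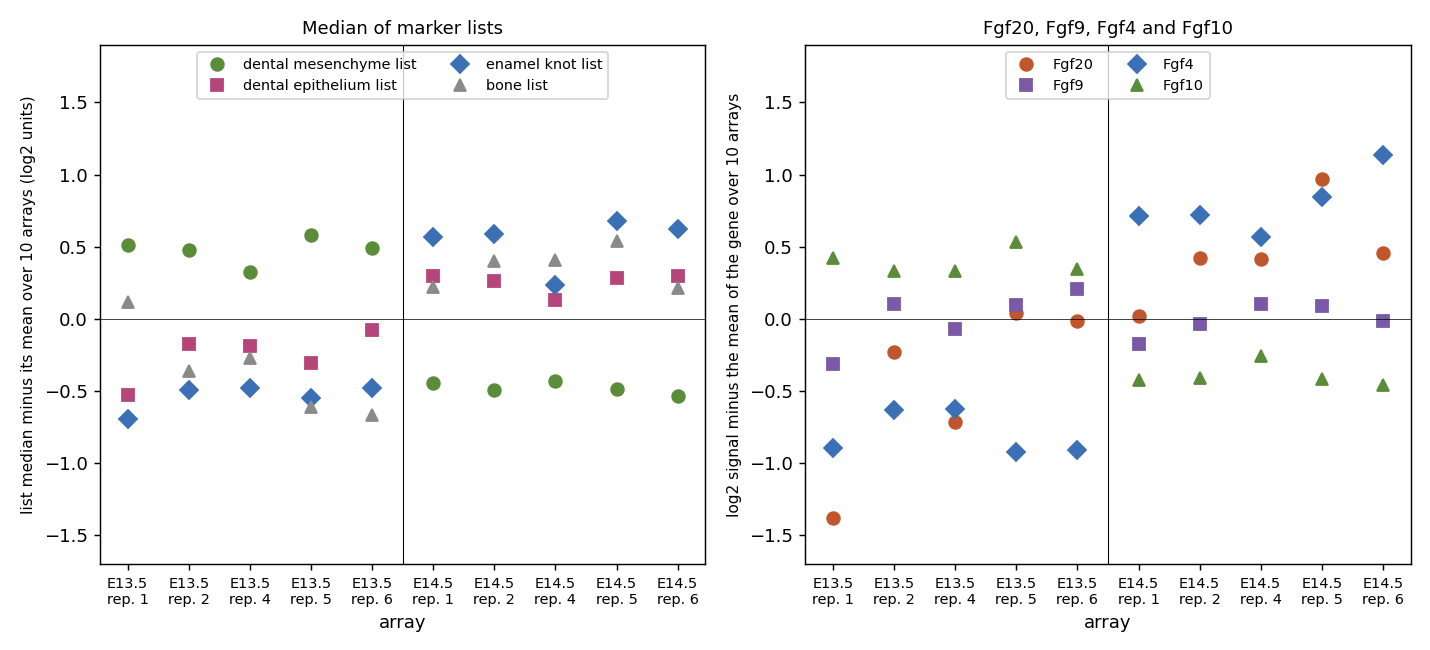
On the left the median log2 signal of each marker list and on the right the log2 signal of 4 ligands, both minus their own mean over the 10 arrays, for each array in turn (E13.5 left and E14.5 right of the line). The mesenchyme list and *Fgf10* are high on the bud arrays and low on the cap arrays, the enamel knot list and *Fgf4* the reverse, and *Fgf20* is lowest on E13.5 replicate 1.

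Which genes had a profile most like each ligand was asked among 388 other genes of the study tables, by the root mean square difference between both mean-centred log2 profiles over the 10 arrays. *Fgf4* was nearest to *Wnt10a* (0.12), *Dkk4* (0.23) and *Reln* (0.24), where the median over candidates was 0.80. *Wnt10a* encodes a Wnt ligand and *Dkk4* a secreted Wnt inhibitor. *Fgf15* was nearest to *Wnt10b* (0.083), *Tgfb1* (0.11) and *Slit1* (0.13), and *Fgf3* to *Wnt10b* (0.17), *Wnt3* (0.18) and *Slit1* (0.19), against medians of 0.45 for both. So *Wnt10b* was the nearest candidate of both *Fgf15* and *Fgf3*. *Fgf10* was nearest to *Fgf13* (0.096), *Dlx6* (0.099) and *Sfrp2* (0.11), against a median of 0.44. *Fgf18* was nearest to *Bmp4* (0.10), *Dlx1* (0.10) and *Smad9* (0.11), against 0.29, and *Fgf1* to *Dab1* (0.058), *Acvr1* (0.067) and *Clu* (0.069), against 0.25. A flat profile would lie 0.81 from *Fgf4*, 0.45 from *Fgf15* and *Fgf3*, 0.40 from *Fgf10*, 0.25 from *Fgf18* and 0.22 from *Fgf1*. These values are near the candidate medians, so nearness here largely reflects a stage change of similar direction and size. The distances are descriptions of 10 arrays that share 2 stages, and no test was made.

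The study table lists 9 more Fgf genes, of which 4 passed, 1 higher and 3 lower (44.4%, median change -0.095). *Fgf16*, of the subfamily of *Fgf9* and *Fgf20*, read 4.44 to 4.75 at E13.5 and 5.52 to 5.96 at E14.5, a rise of 1.09 ± 0.10 (SE, limma adjusted p = 4.48e-05). Within that subfamily *Fgf16* therefore passed, while *Fgf20* and *Fgf9* did not, and its change was not tested against theirs. *Fgf2*, the closest relative of *Fgf1*, fell by 0.68 (limma adjusted p = 0.00444), from 6.95 to 7.54 in the bud to 6.41 to 6.86 in the cap, whereas *Fgf1* rose. *Fgf13* and *Fgf14*, intracellular members of the family that are not secreted, fell by 0.68 and 0.57. *Fgf11* (0.22) and *Fgf12* (-0.26), also of the intracellular subfamily, did not pass. Of the other 5, the rest had values of 0.030 for *Fgf6*, -0.019 for *Fgf5* and -0.095 for *Fgf22*. *Fgf5* and *Fgf6*, of the subfamily of *Fgf4*, thus had values near 0.

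**Figure D3:**
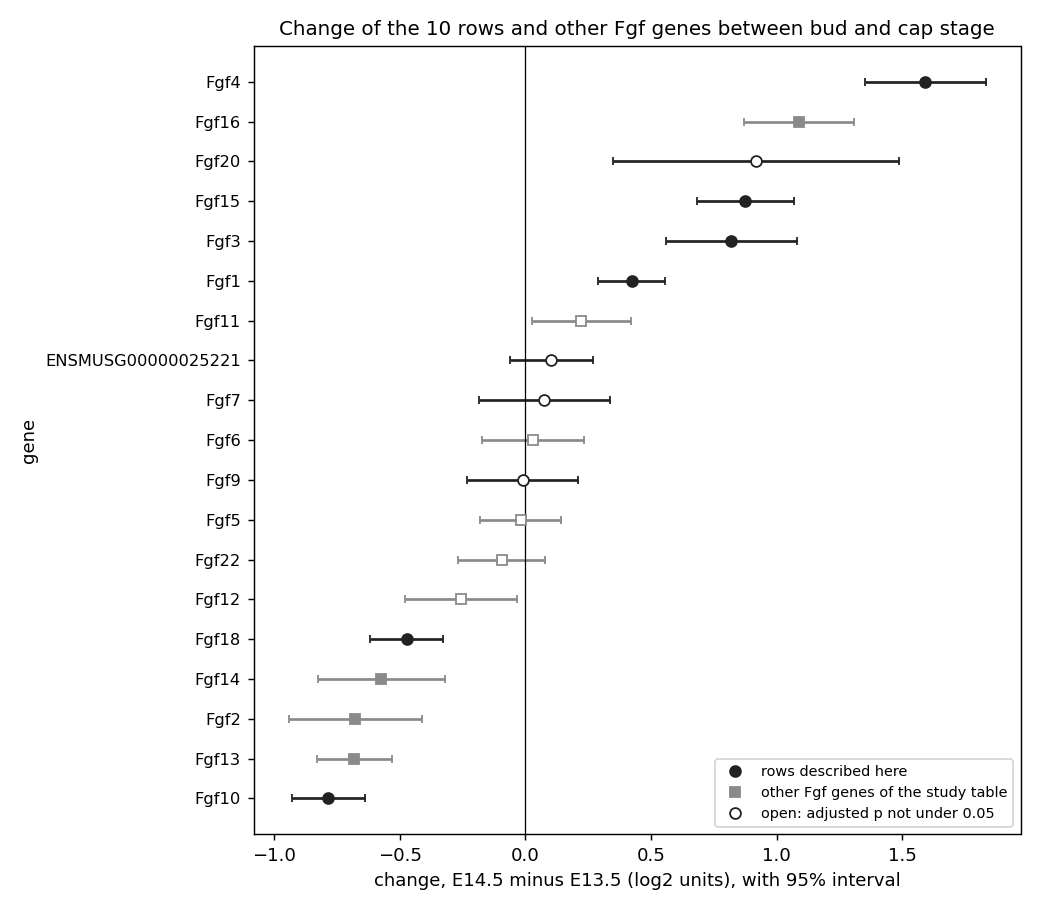
Change of log2 signal from E13.5 to E14.5 (points, with 95% intervals from limma) for the 10 rows (black circles) and 9 more Fgf genes (grey squares), open where the adjusted p was not under 0.05. *Fgf4* stands highest at 1.59 and *Fgf10* lowest at -0.78, and the interval of *Fgf20* is the widest.

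Among the 6 receptors of the pathway table, *Fgfr2*, the receptor of *Fgf3*, *Fgf7* and *Fgf10* in its epithelial isoform, rose by 0.55 ± 0.078 (SE, limma adjusted p = 0.000946), and *Pdgfra*, also a mesenchyme marker, fell by 1.13. The others, *Fgfr1* (0.19), *Fgfr3* (0.18), *Egfr* (0.18) and *Fgfr4* (-0.046), did not pass. The table has 1 value per gene, so isoforms were not separated. Of 34 intracellular components 3 were higher and 4 lower. The feedback inhibitors of Fgf signalling went opposite ways, as *Spry2* rose by 0.70 (limma adjusted p = 0.00142) and *Spry4* fell by 0.84 (limma adjusted p = 0.000331). The adaptor *Gab1* fell by 0.60 and the other 4 changed by 0.35 or less in size. This count of 7 dropped to 3 without any one of E13.5 replicates 4, 5 and 6 and E14.5 replicates 5 and 6, and to 4 without E13.5 replicate 1 or E14.5 replicate 4. It was 3 with arrays centred on their median and 11 with array quality weights. Of 9 transcription factors 2 were higher, *Nfkb2* (0.41) and *Stat6* (0.40). *Egr1*, an immediate-early gene induced by Fgf signalling, had a value of 0.56 ± 0.26 (SE, limma adjusted p = 0.269). In all, 15 of 59 pathway genes outside the 10 rows passed, 7 higher and 8 lower (25.4%, median change 0.012).

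Ligands of other pathways were counted in the same way. Of 21 genes that the study lists as Wnt ligands, 8 passed, all of them higher at E14.5 (38.1%, median change 0.17), among them *Wnt10a* (1.46), *Wnt10b* (0.88) and *Wnt3* (0.84). The list also holds regulators such as *Znrf3* (0.34), a membrane ubiquitin ligase that was 1 of the 8. The count was 5 without E13.5 replicate 5 or E14.5 replicate 5 or 6 and with arrays centred on their median, and 10 with array quality weights. Of 21 genes listed as Tgfb ligands, antagonists included, 6 were higher and 3 lower (42.9%, median 0.046). *Sostdc1*, an inhibitor of Bmp and Wnt signals, is in both lists. *Shh* was the 1 of 3 Hedgehog ligands that passed, and 0 of 5 Notch ligands passed in limma (2 at an unadjusted p under 0.05). The Notch count was 2 with array quality weights and 1 under 5 other settings. Among genes that passed, both the 9 Fgf ligands and the Tgfb list thus held rises and falls, and the Wnt list rises. No difference between pathways was tested.

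**Figure D4:**
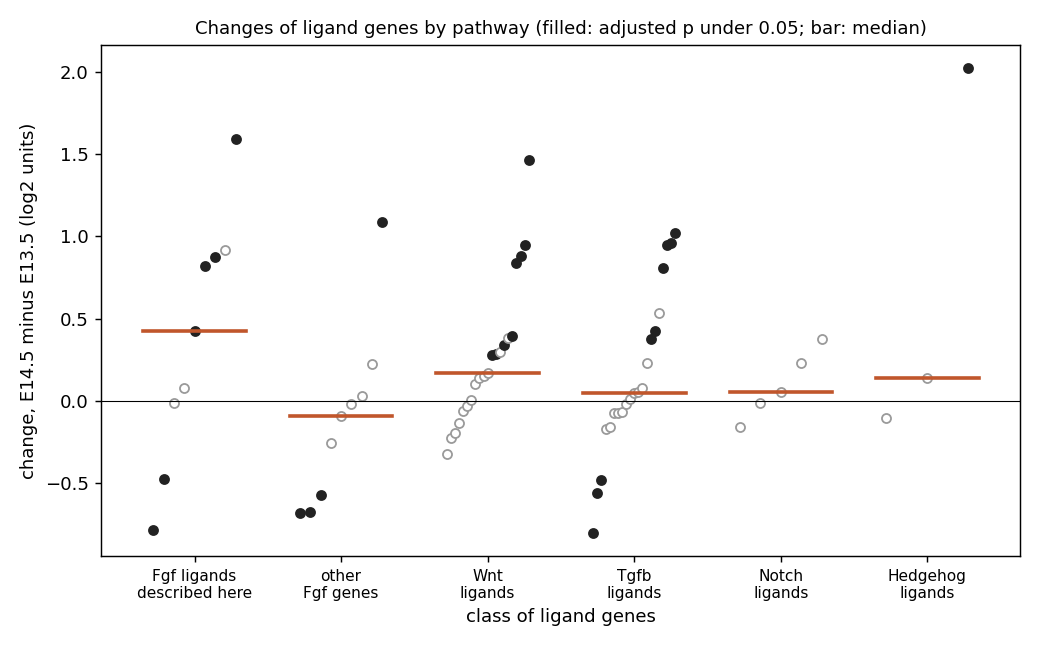
Change of log2 signal from E13.5 to E14.5 of each ligand gene by pathway, filled where the limma adjusted p was under 0.05, with a bar at the median of each class. The 9 Fgf ligands (ENSMUSG00000025221 is not plotted) run from -0.78 to 1.59 with a median of 0.42, and the largest value of all classes is that of *Shh* at 2.02.

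The 6 rows that passed did so in each of the 17 alternative settings, with ranges of 1.50 to 1.71 for *Fgf4*, 0.82 to 0.97 for *Fgf15*, 0.76 to 0.96 for *Fgf3*, 0.39 to 0.48 for *Fgf1*, -0.85 to -0.75 for *Fgf10* and -0.50 to -0.42 for *Fgf18*. The number of rows past the threshold was therefore 6 or 7, according to *Fgf20*.

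**Figure D5:**
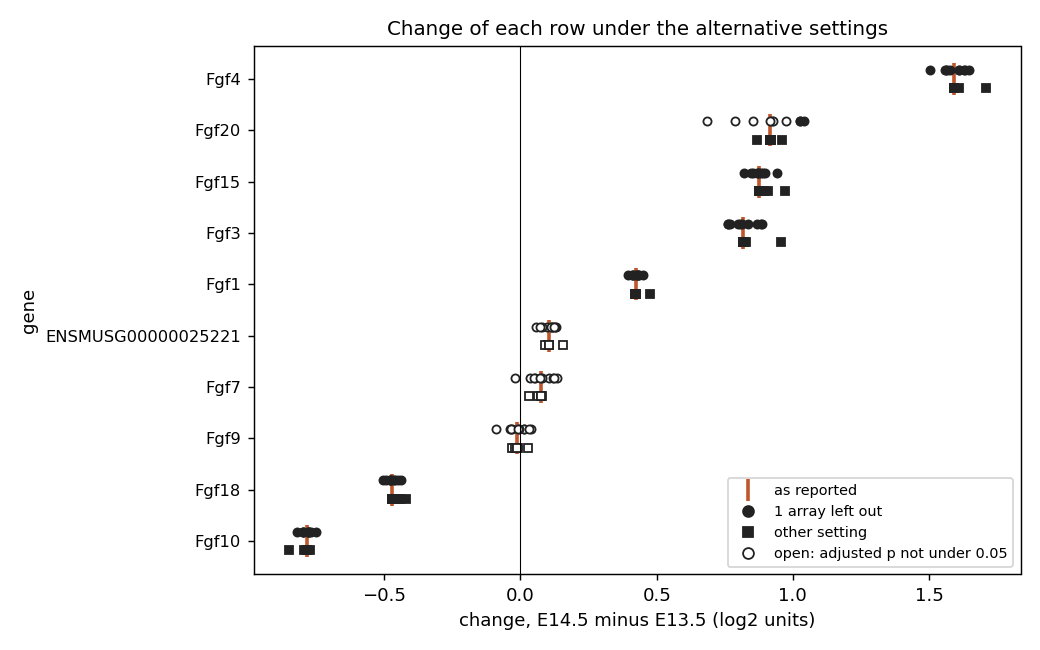
Change of log2 signal from E13.5 to E14.5 of each row as reported (orange bar), with 1 array left out (circles) and under the other settings (squares), open where the adjusted p was not under 0.05. The 6 rows that passed keep filled symbols throughout, and *Fgf20* has both kinds between 0.69 and 1.04. *Fgf9* lies on both sides of 0, and *Fgf7* is below 0 only without E13.5 replicate 6.

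Array medians were 5.06 to 5.22 and SDs over the genes of an array 1.51 to 1.74, and 0 pairs of arrays held identical values. Signals ran from 1.30 to 12.83. Scan dates and detection calls were not used here, so batches and the signal over background were not examined.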

How the data were processed

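First molar tooth germs of NMRI mice were measured on Affymetrix Mouse Exon 1.0 arrays, 5 per stage at E13.5 and E14.5. Per the methods, the authors used aroma.affymetrix for normalization with a Brainarray probe grouping (version 23) that forms 1 probe set per Ensembl gene, and deposited 1 value per gene and array, read here as log2 signals from their range. The log base, background correction, summary model and genome build are not given in the sources used here. Groups and replicate numbers come from the sample labels, which describe 5 replicates per stage, and 0 columns of samples were left unused. The number of arrays limits the precision.

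Stage changes (E14.5 minus E13.5) were fitted in R 4.3.3 by lmFit and eBayes of limma 3.58.1 on all 10 arrays without covariates. The two-sided p-values were adjusted over 27528 genes by the Benjamini-Hochberg method, and the threshold was 0.05. Folds and their 95% intervals are powers of the log2 change. Pairs of ligands were compared by exact permutation of arrays in Python 3.11.15 with numpy 2.4.6, pandas 2.3.3 and scipy 1.17.1. Both tests were tested on simulated data. Alternatives were quantile normalization, centring each array on its median, leaving out genes under the 20th percentile of mean signal (all 10 rows lay above it), array quality weights, the array SD as a covariate, trend and robust eBayes, the replicate number as a block, and each array left out in turn.

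By rule the text names the 10 rows, other Fgf ligands past the threshold, Fgf receptors, *Spry2*, *Spry4*, *Egr1*, marker genes, and the 3 nearest profiles of each row past the threshold. The other 5 Fgf genes, *Gab1*, *Nfkb2*, *Stat6* and the ligands of other pathways were named after their values were seen. Members and lists were chosen with earlier results of these data known. Symbols came from the study's tables, which pair 399 genes with an ID, 395 of them measured. Of the marker lists, those for skeletal muscle, cartilage, erythroid cells, endothelium and macrophages had 0 genes matched, and some markers of the epithelial list are not reported here. RefSeq (GRCm38.p6) gave promoter sequences and gene order.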

Additional observations from a re-analysis of the deposited data

Results flagged for a closer look

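In 46 sets of 5 arrays, 1 gene at 1 stage each, over the 10 rows, the 4 other Fgf genes that passed, the 6 receptors and *Spry2*, *Spry4* and *Egr1*, 3 had an array whose gap to the others exceeded the critical share of the range in Dixon's test at the 95% level, where chance gives about 1 in 20, or 2.3 sets. The signal of *Fgf10* was 4.79 on cap replicate 4 and 4.59 to 4.63 on the other 4 cap arrays (a gap of 0.764 of the range), and without that array its change was -0.82 log2 units. Cap replicate 4 also had the lowest quality weight (0.424) and the lowest SD (1.51) of the 10 arrays. Among cap arrays it had the lowest epithelial (7.90) and enamel knot (6.91) medians and the highest mesenchyme median (7.50). Its *Fgf4* (6.92), *Fgf15* (6.56) and *Fgf18* (6.14) were the lowest of the cap arrays too, while its *Fgf9* (6.72) and *Fgf7* (5.00) were the highest. *Egfr* read 8.44 on cap replicate 1, against 8.11 to 8.15 (0.881 of the range). *Fgfr1* read 8.14 on cap replicate 6, against 7.97 to 8.01 (0.758 of the range).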

How the results depend on the processing

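*Fgf20* came under the threshold with quantile normalization (0.96, limma adjusted p = 0.0432), without the dimmest genes (0.92, 0.0388), with array quality weights (0.87, 0.0294), with trend and robust eBayes (0.92, 0.0473) and with the replicate number as a block (0.92, 0.00593). With each array left out in turn it ran from 0.69 to 1.04, and it came under the threshold when bud replicate 5, bud replicate 6 or cap replicate 1 was left out. The cause was not tested.

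The change of *Fgf9* was 0.027 with quantile normalization and -0.092 to 0.039 with an array left out, and that of *Fgf7* was -0.021 to 0.13 with an array left out. Neither passed in any setting. Array quality weights raised the count of pathway genes outside the 10 rows from 15 to 24, and leaving out an array gave 11 to 18. With medians, the gaps of *Fgf4* to *Fgf9*, *Fgf9* to *Fgf20*, *Fgf3* to *Fgf10*, *Fgf7* to *Fgf10* and *Fgf3* to *Fgf4* changed by 1.50, -0.79, 1.70, 0.78 and -0.68. Each had an adjusted p of 0.0571 (exact permutation), the lowest they could reach here, so passing was out of reach in this setting. As pairs of equal replicate number, a block, they changed by 1.60, -0.93, 1.60, 0.86 and -0.77 with an exact p of 0.0625, the smallest that 5 pairs allow. In that block setting the gap of *Fgf4* to *Fgf20* changed by 0.67 with the same exact p of 0.0625, so the setting did not separate it from the others. With an array left out that gap changed by 0.52 to 0.88.

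The check made did not settle whether replicate numbers mark pairs of samples. Deviations from the stage mean of equal-numbered arrays correlated across genes at 0.393, -0.0792, 0.513, 0.0304 and 0.283 for replicates 1, 2, 4, 5 and 6. The E13.5 arrays of replicates 1 and 4 correlated best with the E14.5 array of their own number. Those of replicates 2, 5 and 6 did not. The block changed the count of rows past the threshold from 6 to 7 and that of the other pathway genes from 15 to 13. Without its own detection calls a low signal cannot be told from background, and smaller changes than those given may lie within the spread of 5 arrays.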
